A study of Sus scrofa with 4 samples.

Results

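The antigen-making enzymes GGTA1, CMAH and B4GALNT2 were looked for by name among the genes counted in single cells of pig pancreas and of pig pancreatic ductal organoids, and all features carrying a name were to be summed. Of the 3 genes, 1 was found: CMAH was carried by a single feature of 56060, under 1 of 30282 gene identifiers (ENSSSCG00000001099). GGTA1 and B4GALNT2 matched no feature name and were not analysed here. The pig RefSeq table for Sscrofa11.1, the build named for these files, places CMAH on chromosome 7 from 19879367 to 19917761, a gene of 38395 bases.

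These enzymes build the surface sugars that human antibodies recognise on pig cells. GGTA1 attaches the terminal galactose of the alpha-Gal epitope, B4GALNT2 attaches the terminal N-acetylgalactosamine of the Sda antigen, and CMAH, cytidine monophosphate-N-acetylneuraminic acid hydroxylase, hydroxylates the activated sialic acid Neu5Ac to Neu5Gc, which is then transferred to glycoproteins and glycolipids. Humans carry an inactive CMAH gene and can make antibodies against Neu5Gc, and the vessel lining of a pig organ is the first surface that such antibodies meet.

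Single-cell RNA-Seq libraries came from 2 porcine pancreatic ductal organoid (PPDO) lines and from the pancreas of 2 pigs near sexual maturity. The PPDO lines, 1 late postnatal and 1 adult in an order the labels do not give, grew in an expansion medium with WNT and EGF-type growth factors. The paper took them at different passages and states that most of their cells had by then moved to a less mature ductal phenotype. Early-passage PPDO were not sampled. The first primary pancreas was from a wild-type pig and its ducts were picked by hand. The second was from a pig with an INS-eGFP transgene, in which the insulin promoter drives the reporter, and it pooled sorted eGFP cells, cells sorted with the lectin DBA and unsorted live cells. The libraries held 6999 to 9853 barcodes, median depth was 7402 to 8592 unique molecular identifiers (UMIs, 1 per captured transcript) per barcode in primary pancreas and 35127 to 35310 in PPDO, and any pair of libraries shared 10 to 23 barcodes. The eGFP transgene had 10361 UMIs in primary pancreas 2 and 164 in primary pancreas 1. After filtering, 5671 and 4261 primary cells and 8885 and 7337 PPDO cells remained. Primary cells were clustered without CMAH and each cluster was called by the marker list it matched, as endothelial-like, immune-like, Schwann-like, acinar-like, stromal-like, ductal-like, INS-rich-like or other endocrine-like. Culture and group coincide, as do line, age and passage in PPDO, and animal, processing day and sort in the primary libraries. Their parts cannot be told apart.

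CMAH was highest in endothelial-like cells. In counts per 1000000 UMIs of the class (CPM) it stood at 140 in primary pancreas 1, from 1688 UMIs in 1073 cells, and at 106 in primary pancreas 2, from 311 UMIs in 264 cells, a mean of 123.3 ± 23.8 (SD, n = 2). These cells were 18.9% of the cells of primary pancreas 1 and carried 70.2% of its CMAH UMIs, and in primary pancreas 2 they were 6.20% of cells with 58.0% of the UMIs. The adhesion gene PECAM1 stood at 2248 and 2374 CPM in the same cells, but it is on the marker list that named the class and so is no separate check. A CMAH UMI was found in 54.8% and 45.8% of them, and 230 cells of primary pancreas 1 held 3 or more.

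Immune-like and Schwann-like cells followed. Immune-like cells had 54.3 CPM in primary pancreas 1 and 69.2 CPM in primary pancreas 2 (mean 61.7 ± 10.5, SD, n = 2), with a UMI in 27.6% and 38.4% of cells. Schwann-like cells, the glia that ensheath nerves, had 60.9 CPM in primary pancreas 1, where 345 were captured, and only 1 was captured in primary pancreas 2. Acinar-like cells, which secrete digestive enzymes, had 28.1 CPM and 38.3 CPM (mean 33.2 ± 7.21, SD, n = 2). Both libraries gave the same order of endothelial-like, immune-like and acinar-like cells, although the second animal was lower in endothelial-like cells and higher in the others. After a new clustering with doublets kept, which called 149 further cells of primary pancreas 1 acinar-like and left 58 acinar-like cells in primary pancreas 2 in place of 175, acinar-like cells had 52.8 CPM and 17.3 CPM, beside 52.7 CPM and 89.7 CPM in immune-like cells. Their order in primary pancreas 1 therefore depends on which cells are called acinar-like. With CMAH among the clustering genes, with 1 filter for both libraries and at resolution 1.0, primary pancreas 2 also had only 56 acinar-like cells. The 38.3 CPM thus holds for a class that every other clustering made smaller.

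The remaining primary classes had little CMAH. Stromal-like cells had 2.55 CPM from 17 UMIs and 2.30 CPM from 1 UMI. Ductal-like cells, the cells of the tree from which PPDO are grown, had 1.41 CPM from 62 UMIs over 2312 cells and 0.513 CPM from 13 UMIs over 1188 cells (mean 0.961 ± 0.635, SD, n = 2). INS-rich-like cells had 0 UMIs in the 46 cells of primary pancreas 1, which allows up to 2.37 CPM, and 0.299 CPM from 24 UMIs over 1776 cells of primary pancreas 2. In the latter 55.7% of UMIs came from INS, without which their level was 0.675 CPM, beside 0.517 CPM in ductal-like cells of that library, so these classes are not ordered here. The other endocrine-like cells, rich in GCG or SST, had 0 UMIs in 55 cells, which allows up to 7.096 CPM, and 0.209 CPM from 1 UMI over 427 cells. Intervals and these limits cover counting error only.

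PPDO sat among the classes with CMAH, although their tissue of origin did not. The level was 34.0 CPM in PPDO 1, from 10235 UMIs, and 31.8 CPM in PPDO 2, from 8346 UMIs (mean 32.9 ± 1.55, SD, n = 2), and 34.7% and 31.3% of cells had a UMI at median depths of 34176 and 34459 UMIs, against 1.90% and 1.01% of ductal-like cells at 17336 and 20559 UMIs. Every PPDO value was above every ductal-like, stromal-like and islet value and below every endothelial-like and immune-like value. The acinar-like values of 28.1 and 38.3 lay on either side of the PPDO values.

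**Figure D1:**
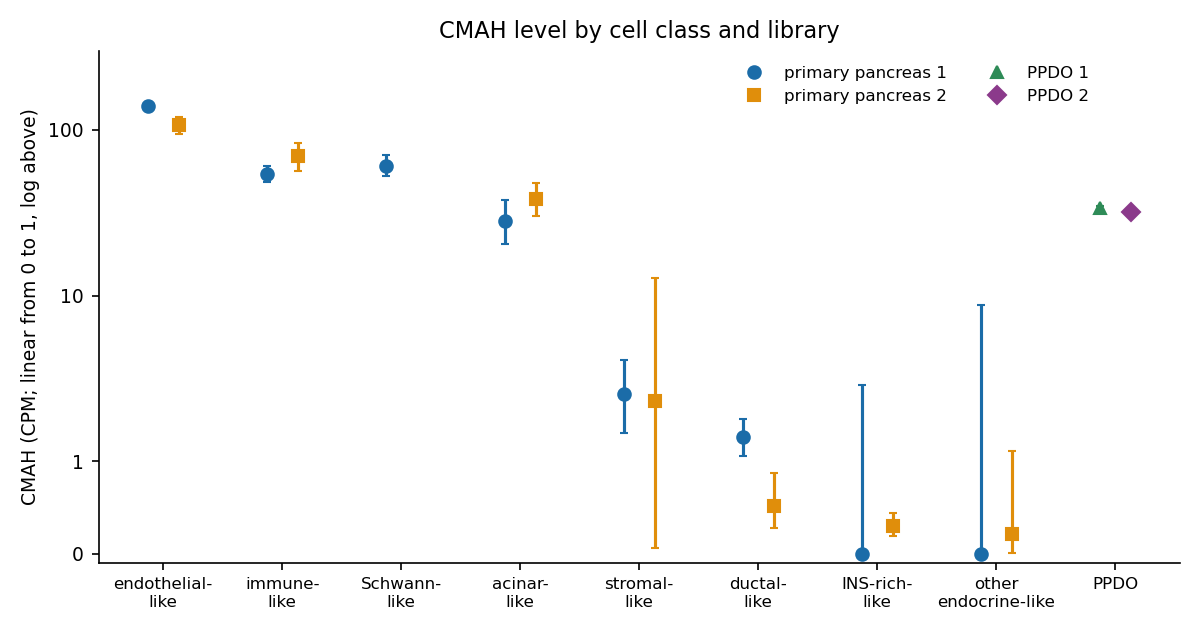
CMAH level in CPM (linear axis from 0 to 1, logarithmic above) in each primary cell class and in PPDO, 1 point per library with its exact 95% Poisson interval for counting error. Endothelial-like cells stand highest at 140 and 106 CPM, PPDO stand at 34.0 and 31.8 CPM, and ductal-like cells stand at 1.41 and 0.513 CPM.

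PPDO cells were sequenced more deeply than primary cells, so the share of cells with a UMI was recomputed after every cell was thinned to 3000 UMIs and shallower cells were left out. The share was then 26.6% (95% exact binomial interval 23.9 to 29.4) and 19.3% (14.7 to 24.6) in endothelial-like cells and 7.42% (6.88 to 7.99) and 6.93% (6.36 to 7.54) in PPDO. Ductal-like cells came to 0.625% (0.33303 to 1.07) and 0.168% (0.0204 to 0.607), and INS-rich-like cells of primary pancreas 2 to 0.0563%. Immune-like cells came to 14.5% and 16.7%, Schwann-like cells to 15% and acinar-like cells to 8.33% and 11.4%. The shares of the classes with CMAH stayed above those measured in the others at equal depth, although the 0 of 28 other endocrine-like cells of primary pancreas 1 still allow up to 10.7%. PPDO and acinar-like cells were not told apart. The acinar-like interval of primary pancreas 1 (3.88 to 15.2) covered the PPDO shares. Thinned to 1000 UMIs PPDO, at 2.85% and 2.59%, lay above acinar-like cells, at 1.85% and 1.71%. Those acinar-like shares come from 2 and 3 cells with a UMI, and their intervals (0.225 to 6.53 and 0.355 to 4.93) cover the PPDO shares. Left out by the thinning were 231 ductal-like and 44 endothelial-like cells of primary pancreas 1, none of these classes in primary pancreas 2, and 61 and 10 PPDO cells.

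**Figure D2:**
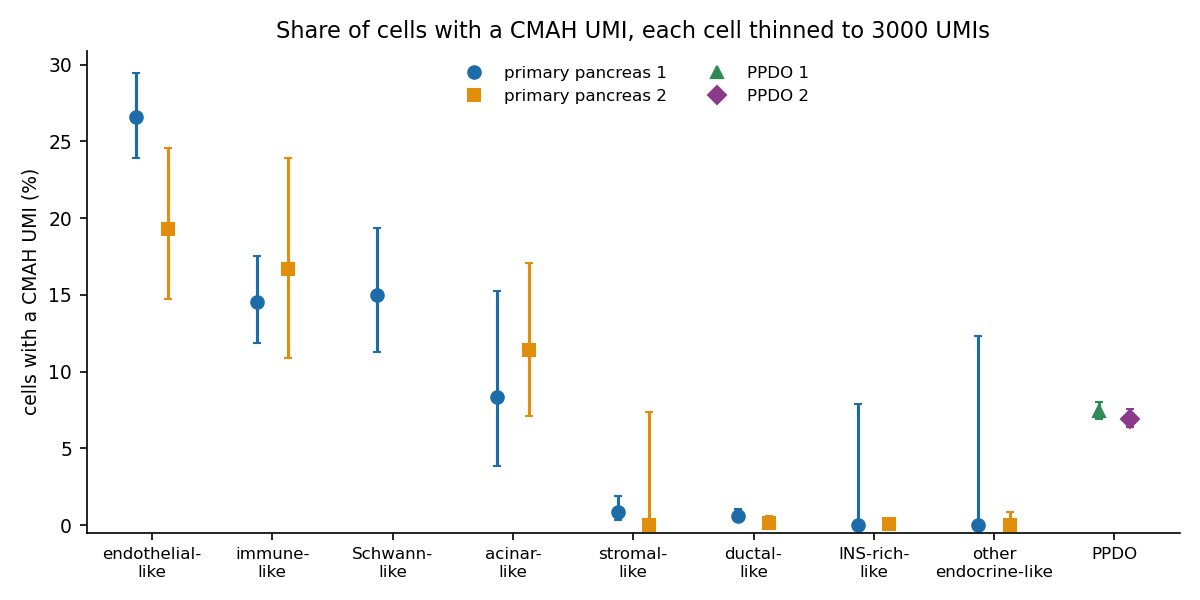
Share of cells with at least 1 CMAH UMI after thinning each cell to 3000 UMIs, by cell class, 1 point per library with its exact 95% binomial interval. PPDO lie at 7.42% and 6.93%, above the ductal-like shares of 0.625% and 0.168% and below the endothelial-like shares of 26.6% and 19.3%.

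The difference between PPDO and ductal-like cells was tested on UMI sums per library with edgeR's quasi-likelihood test. CMAH was higher in PPDO by 5.45 on the log2 scale (SE 0.57, 95% interval 3.95 to 6.95, adjusted p = 0.0030, higher in both PPDO libraries than in both ductal-like sums). Of the 23560 genes tested, 43.6% were called and 22.8% were called higher in PPDO, so a call by itself was common. A larger rise than that of CMAH was fitted for 1.73% of genes. The size moved with the ductal-like library: the difference was 4.86 without primary pancreas 2 and 6.54 without primary pancreas 1. The ductal-like class came from different clusters in the 2 animals, clusters 2, 4, 8 and 18 in the first and clusters 0, 18 and 24 in the second.

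The ductal-like level itself was near the background of these libraries. INS, which immune cells do not make, stood in immune-like cells at 2.11% and 3.11% of its level in the whole library, and that percentage of the library's CMAH would be 0.669 and 0.141 CPM. A further reading used the endothelial marker list, whose 14 genes summed to 136 and 77.9 CPM in ductal-like cells against 11014 and 13679 CPM in endothelial-like cells. At the CMAH to marker ratio of the endothelial-like cells, those marker UMIs would come with 1.73 and 0.606 CPM of CMAH, above the 1.41 and 0.513 CPM measured. By the INS reading the ductal-like level was above background and by the marker reading it was not, so CMAH in ductal-like cells is not told apart from background here. By the marker reading stromal-like cells would have 2.45 and 1.49 CPM, against the 2.55 and 2.30 CPM measured, the latter from 1 UMI, and INS-rich-like cells of primary pancreas 2 would have 0.245 CPM, against 0.299 CPM. In PPDO the same markers summed to 77.5 and 66.5 CPM, which at the ratios of either animal would come with at most 0.986 CPM, against the 34.0 and 31.8 CPM measured. Those ratios belong to the primary libraries, so they give no background level for free RNA of PPDO cells, which was not tested.

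Most of the ductal-like UMIs of primary pancreas 1 lay in 1 cluster. Cluster 8, led by UNC13D, SHANK2 and the chloride channel gene CFTR, held 468 cells of low depth (median 5329 UMIs) and 32 of the 62 UMIs, at 9.68 CPM. The endothelial markers summed to 553 CPM there, against 118 CPM in cluster 2 and 69.9 CPM in cluster 4, where CMAH stood at 0.794 and 0.449 CPM. CMAH and the endothelial markers were thus both highest in the same ductal-like cluster. Without it, an alternative chosen after seeing the data, the difference between PPDO and ductal-like cells was 6.11, and with doublets kept it was 4.59.

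PPDO were also set against the other classes, with the same PPDO libraries in all 7 further fits. CMAH was higher in PPDO than in stromal-like cells by 4.14 (SE 0.31, edgeR adjusted p = 1.0e-04, with 38.7% of genes called) and than in INS-rich-like cells by 6.46 (SE 0.37, edgeR adjusted p = 6.3e-06, with 52.7% called). It was lower than in endothelial-like cells by 1.61 (log2 fold change -1.61, SE 0.22, edgeR adjusted p = 0.0029, with 42.6% called). No difference was called from immune-like cells (-0.45, 95% interval -0.90 to 0.01, with 38.9% called) or Schwann-like cells (-0.31, 95% interval -0.67 to 0.05, with 38.8% called), and no fold is given against the other endocrine-like cells with their 1 UMI. Schwann-like cells gave 1 sum with no replicate. Every interval, SE and p against them therefore takes the spread from the other sums and assumes that the lone sum varies like those. In the fits against immune-like and Schwann-like cells the median of all genes stood at 0.20 and 0.40. Likeness of PPDO to these classes is therefore not read from these fits. In CPM PPDO, at 34.0 and 31.8, were below immune-like cells at 54.3 and 69.2 and Schwann-like cells at 60.9. Thinned to 3000 UMIs, the PPDO shares of 7.42% and 6.93% were also below theirs, at 14.5% and 16.7% and at 15%. Against acinar-like cells the fit gave -1.02 (edgeR adjusted p = 0.022, with 31.8% called) although the CPM were alike at 32.9 and 33.2. In that fit the median of all genes stood at 0.69, and the acinar markers alone took 161884 and 115594 CPM of the acinar-like sums, so no order of PPDO and acinar-like cells is read from it.

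Between the primary classes, all 28 pairs were tested in 1 edgeR fit with the library as a block, and 20 of them were called, with 1.33% to 44.9% of all genes called per pair. Endothelial-like cells exceeded ductal-like cells by 7.12 (SE 0.44, adjusted p = 1.6e-08), in a comparison that called 34.9% of 18170 genes, and 1.30% of genes had a larger log2 fold change. The difference was 7.81 without primary pancreas 1, and 7.74 without ductal-like cluster 8. Immune-like cells exceeded ductal-like cells by 6.09 (SE 0.43, with 40.5% of genes called), and the single Schwann-like sum exceeded them by 5.65 (SE 0.46, with 21.7% called). Acinar-like cells exceeded them by 6.64 (SE 0.45, with 22.5% called), where the median of all genes stood at -0.36. The fit set acinar-like above immune-like cells although their mean CPM was 33.2 against 61.7, so no order of acinar-like cells within the upper group is read from it. The classes thus fell into a group with CMAH and a group with little or none. The smallest fitted gap between the groups was that of the single Schwann-like sum over stromal-like cells, at 4.46 (SE 0.55). That of immune-like over stromal-like cells was 4.91 (SE 0.51, edgeR adjusted p = 1.8e-06, with 35.1% called). Acinar-like over stromal-like cells was fitted at 5.46, but in CPM they were the nearest classes of the groups, at 28.1 against 2.55 in primary pancreas 1. With doublets kept they had 17.3 against 2.17 CPM in primary pancreas 2.

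Neighbours within either group were mostly not separated. Endothelial-like cells exceeded immune-like cells by 1.03 (SE 0.35, edgeR adjusted p = 0.034, with 27.9% of genes called), a call that 6 of 12 alternatives lost, among them those without primary pancreas 1 (0.73) and without primary pancreas 2 (1.35). They exceeded the single Schwann-like sum by 1.48 (SE 0.46, edgeR adjusted p = 0.028, with 21.0% called), a call that 4 of 10 alternatives lost. Immune-like and Schwann-like cells were not told apart (0.45, 95% interval -0.50 to 1.40). The fit called no difference between endothelial-like and acinar-like cells (0.48, 95% interval -0.27 to 1.23, with 31.1% of genes called). Nor was one called between immune-like and acinar-like cells (-0.55, 95% interval -1.32 to 0.22, with 34.4% called), whose fitted sign is opposite to the order of their CPM. As this fit does not place acinar-like cells, likeness to them is not read from it either. In CPM endothelial-like cells were above acinar-like cells in both libraries, at 140 against 28.1 and 106 against 38.3. In the lower group, stromal-like and ductal-like cells differed by 1.19 (SE 0.53, edgeR adjusted p = 0.11, with 30.7% called), a difference that 2 alternatives called, and ductal-like and INS-rich-like cells by 0.62 (95% interval -0.48 to 1.72, with 33.4% called), which turned to -0.38 without primary pancreas 1. Stromal-like cells exceeded INS-rich-like cells by 1.80 (SE 0.64, edgeR adjusted p = 0.043, with 31.2% called), a call that 4 of 10 alternatives lost and that compares levels near those of the marker reading. They were also called higher than the other endocrine-like cells (edgeR adjusted p = 0.031, with 32.1% called), from 18 UMIs against 1, and 2 of 10 alternatives lost that call. Against the other endocrine-like cells, with 1 UMI in all, the pooled CPM of endothelial-like cells was 697 times as high, with an exact counting interval from 125 to 27547.

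Within the endothelial-like class the level varied between clusters. In primary pancreas 1, cluster 12, led by TLL1, the leukocyte adhesion gene SELP and IL33, had 183 CPM, cluster 5, led by DYSF, FGF12 and the VEGF receptor gene FLT1, had 126 CPM, and cluster 19, led by SEMA3G, had 119 CPM. In primary pancreas 2, cluster 16, led by BTNL9, had 118 CPM, cluster 12 had 89.1 CPM, and cluster 19, with 21 cells, had 38.0 CPM. Cluster 12 was thus the highest in the first animal and not in the second.

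Immune-like cells were also uneven. The lymphoid cluster, led by GNLY and CCL5, had 45.9 CPM and 91.0 CPM. A myeloid cluster led by CD300C and SLC11A1 had 105 CPM and 71.9 CPM. A further myeloid cluster led by CCL8, with the macrophage genes MRC1 and CD163 among its leading genes, had 28.5 CPM in primary pancreas 1, and 2 UMIs in 14 cells of primary pancreas 2. The macrophage-gene cluster was the lowest of the 3 in primary pancreas 1, and the order of the other 2 turned between the animals. Acinar-like cluster 15 had 44.8 CPM and 38.3 CPM, and cluster 23, richer in acinar markers, had 15.9 CPM from 14 UMIs, 10 of them in 1 of its 72 cells.

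**Figure D3:**
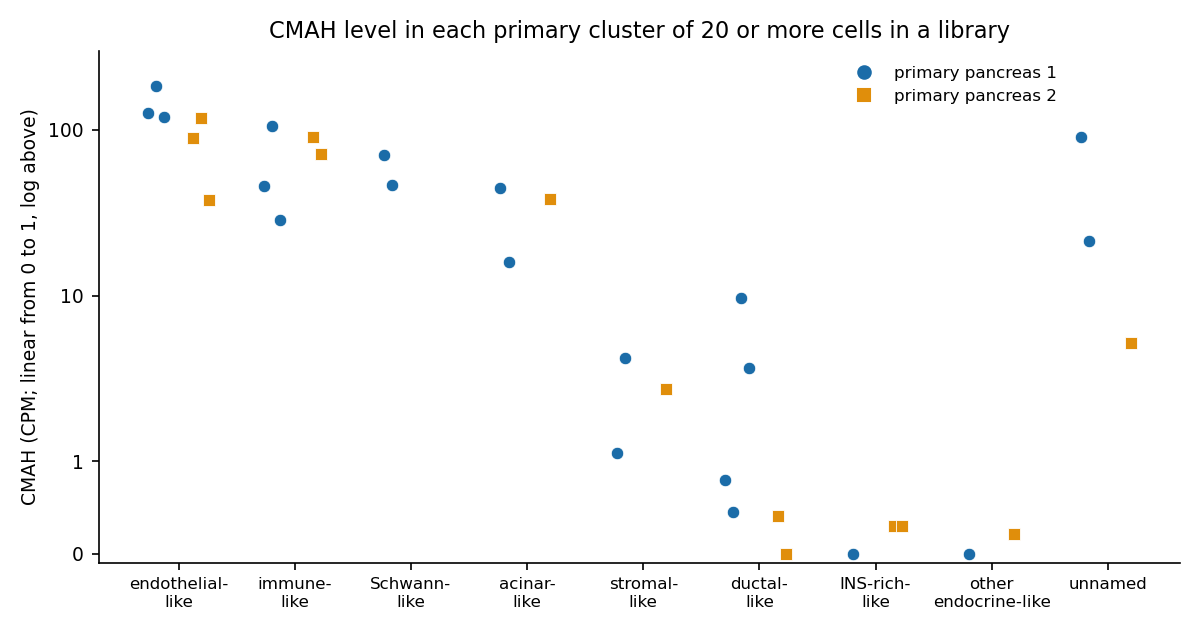
CMAH level in CPM (linear axis from 0 to 1, logarithmic above) of every primary cluster with 20 or more cells in a library, arranged by class, 1 point per cluster and library. Endothelial-like clusters lie between 38.0 and 183 CPM, immune-like clusters between 28.5 and 105 CPM, and ductal-like clusters at 9.68 CPM or below.

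CMAH was uneven within PPDO as well. Clusters are given by number and leading genes, and the PPDO libraries contributed to all 9. Cluster 8, led by the chemokine gene CCL2, HPS5 and EVA1C, had 188 CPM in the 92 cells of PPDO 1 and 228 CPM in the 44 cells of PPDO 2. A UMI was found in 92.4% and 93.2% of its cells. The adhesion gene ICAM1 and the chemokine gene CXCL2 were also among its leading genes. Of the marker lists it matched that of WNT receptor and target genes best (mean log2 fold 0.70), as did cluster 0 (0.44). Of 3 other clusterings, that with CMAH among the clustering genes again gave a cluster led by CCL2, of 207 cells, while those at resolution 1.0 and with a floor of 600 genes gave none. Cluster 7, led by SPP1 and KRT4 and the cluster richest in ductal markers, had 76.1 CPM and 131 CPM. Cluster 3, led by GPNMB and BBOX1, had 59.1 CPM and 74.0 CPM. These clusters were above the mean of all PPDO cells in both libraries.

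At the other end, cluster 1 had 3.08 CPM in 2091 cells of PPDO 1 and 4.70 CPM in 1622 cells of PPDO 2. It was led by TIMP3, ADM and EGLN1, with the hypoxia-responsive genes VEGFA and NDRG1 next, and its glycolysis markers summed to 28978 and 28541 CPM against 4247 to 18045 CPM in the other clusters. In this clustering the cluster with the highest glycolysis sum therefore had the lowest CMAH in both libraries, and cluster 8, with the lowest glycolysis sum, had the highest. Cluster 2, led by NDUFA4L2 and MMP3, had 22.9 CPM and 12.7 CPM. Cluster 0, led by MOXD1, CDH13 and ANTXR1, had 31.5 CPM and 32.9 CPM. The dividing cells of cluster 4, led by CENPF and TOP2A, had 21.1 CPM and 19.5 CPM, the replicating cells of cluster 6, led by DTL, had 33.6 CPM and 34.6 CPM, and the squamous-gene cluster 5, led by SPRP and KRTDAP, had 24.4 CPM and 18.1 CPM.

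**Figure D4:**
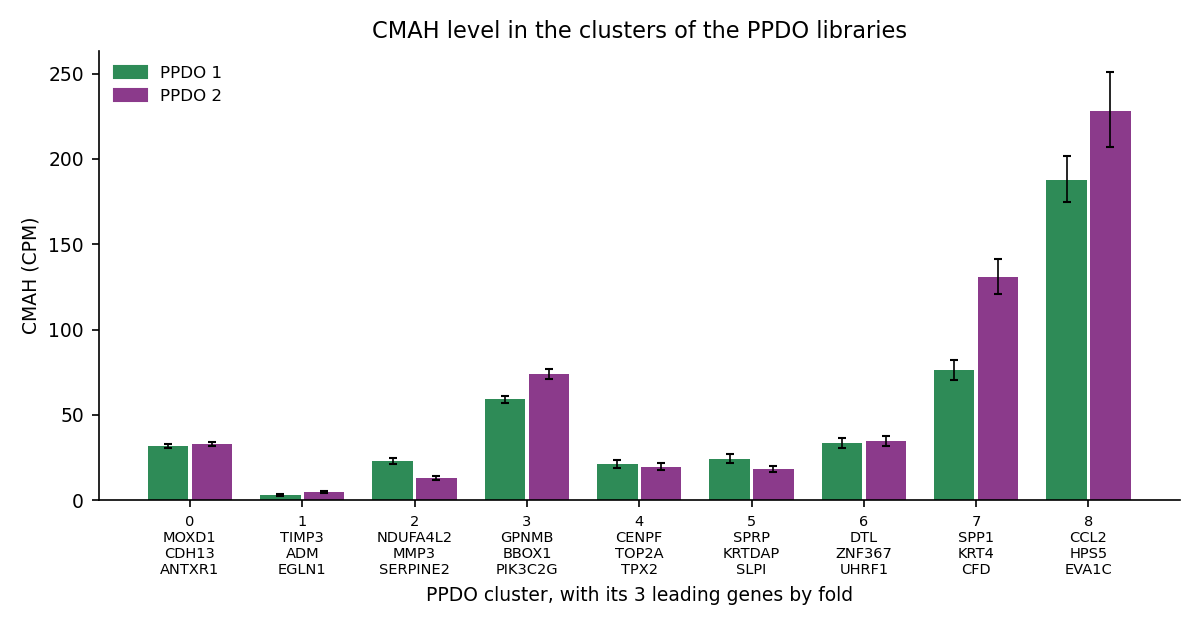
CMAH level in CPM in the 9 PPDO clusters, 1 bar per library with its exact 95% Poisson interval, and the 3 leading genes of each cluster below its number. Cluster 1 is lowest at 3.08 and 4.70 CPM, cluster 8 is highest at 188 and 228 CPM, and the intervals of the 2 libraries overlap in clusters 0, 4 and 6.

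The difference among clusters was tested once, over all 9, with the library as a block. It was called (edgeR quasi-likelihood F = 62.5, adjusted p = 2.6e-08), as it was for 74.4% of 18359 genes, and 4.003% of genes had a larger F. CMAH was kept out of the clustering, but the clusters come from the same cells, so the call is a description beside that percentage. Without cluster 8, an alternative chosen after seeing the data, F was 41.9. Thinned to 3000 UMIs, cluster 1 had a UMI in 0.720% and 0.803% of cells, cluster 3 in 13.9% and 20.3%, cluster 7 in 15.4% and 36.7%, and cluster 8 in 34.8% and 27.3%. Cluster 1 thus remained the lowest at equal depth, with cluster 5 next at 3.02% and 3.75%. Thinned to 1000 UMIs it was lowest again, but its interval in PPDO 2 (0.174 to 0.887) overlapped that of cluster 2 (0.495 to 1.76). Cluster 8 was above cluster 7 in both libraries at 1000 and at 5000 UMIs, and below it at 3000 UMIs in PPDO 2, where its 44 cells gave an interval of 14.96 to 42.8. Each depth was 1 random draw. In PPDO 2 cluster 8 came to 31.8%, 27.3% and 52.3% at 1000, 3000 and 5000 UMIs, so the turn at 3000 UMIs is not read as an effect of depth.

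The share of CMAH UMIs followed cluster size only in part. Cluster 1 was 23.5% and 22.1% of PPDO cells with 1.47% and 2.61% of the UMIs. Cluster 3 was 15.5% and 10.9% of cells with 35.1% and 31.9% of the UMIs, the largest share in both libraries. Clusters 7 and 8 together were few, and leaving them out lowered the PPDO mean only to 29.5 ± 1.57 CPM (SD, n = 2). The level of PPDO therefore did not rest on those cells. With cluster 7 alone in place of all PPDO, also chosen after seeing the data, the difference from ductal-like cells was 6.91.

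The genes that supply CMAH and use its product were read from the same fits. Of 16 genes of sialic acid supply and turnover, 12 were tested, and against ductal-like cells 3 were higher in PPDO (22.8% of all genes were), 5 were lower (20.9% of all genes were) and 4 were not called, at a median log2 fold change of -0.08 beside 0.01 for all genes. NANS, which condenses the sialic acid skeleton, had 372 and 363 CPM in PPDO and 199 and 204 CPM in ductal-like cells (1.33, edgeR adjusted p = 0.0031). CMAS, which activates sialic acid and so makes the form that CMAH hydroxylates, had 34.1 and 36.2 CPM in PPDO and 169 and 201 CPM in ductal-like cells (log2 fold change -1.93, edgeR adjusted p = 0.0012). The enzyme before CMAH was thus lower where CMAH was higher. GNE, the first enzyme of the pathway, was lower in PPDO (-1.71), as were the acetylase gene CASD1 (-2.12), the lysosomal sialidase gene NEU1 (-1.19) and CYB5A (-1.29), whose cytochrome b5 passes electrons to CMAH. The esterase gene SIAE (0.83) and the lysosomal exporter gene SLC17A5 (0.86, edgeR adjusted p = 0.0498) were higher.

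In endothelial-like against ductal-like cells, 1 of the 12 was higher (18.1% of all genes were), 3 were lower (16.8% of all genes were) and 8 were not called, at a median of -0.39 beside 0.04 for all genes. CYB5R3, the reductase gene that recharges cytochrome b5, had 21.7 and 30.1 CPM in endothelial-like cells and 7.14 and 5.01 CPM in ductal-like cells (2.26, edgeR adjusted p = 3.1e-04). CYB5A itself had 68.3 and 67.4 CPM in endothelial-like cells and 471 and 457 CPM in ductal-like cells (log2 fold change -2.61). CMAS (-1.54) and NEU1 (-1.05) were lower too. The 2 genes of the electron supply thus lay on opposite sides. SLC35A1, which carries activated sialic acid into the Golgi, was not called in either comparison (-0.36 for PPDO, -0.45 for endothelial-like cells). Both comparisons share the ductal-like sums.

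**Figure D5:**
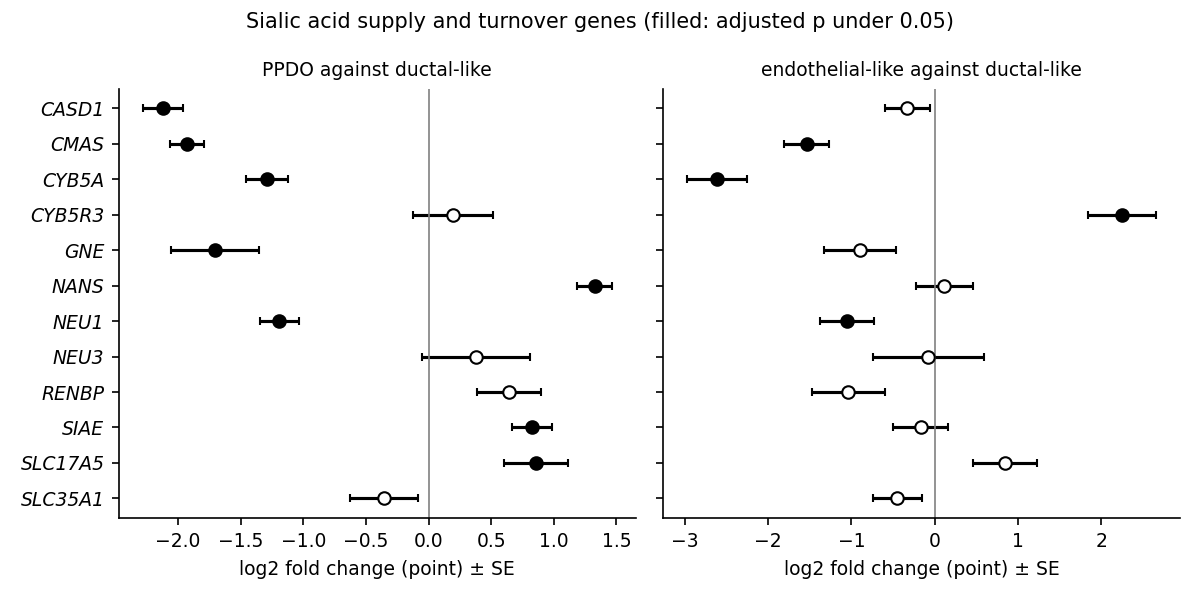
Log2 fold change with its SE for the 12 tested genes of sialic acid supply and turnover, in PPDO against ductal-like cells (left) and endothelial-like against ductal-like cells (right), filled where the edgeR adjusted p was under 0.05. CMAS, CYB5A and NEU1 are lower in both panels, NANS is higher in PPDO at 1.33, and CYB5R3 is higher in endothelial-like cells at 2.26.

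Sialyltransferases, which place the sialic acid on glycans, moved in both directions. Of 17 tested in PPDO against ductal-like cells, 6 were higher and 7 lower, beside 22.8% and 20.9% of all genes (median -0.64 beside 0.01 for all genes). The largest rises were in ST6GALNAC1, the sialyl-Tn synthase gene (4.92), ST8SIA5 (4.12) and ST8SIA4, a polysialic acid synthase gene (3.67). ST8SIA1, the GD3 ganglioside synthase gene, had 92.3 and 112 CPM in ductal-like cells and 0.0465 and 0.0305 CPM in PPDO (log2 fold change -10.87, edgeR adjusted p = 3.1e-04), the largest fall of the list. ST3GAL1, which caps mucin-type core glycans (-5.65), and ST3GAL5, the GM3 synthase gene (-4.82), fell as well.

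In endothelial-like against ductal-like cells, 7 of 18 sialyltransferases were higher and 4 lower, beside 18.1% and 16.8% of all genes (median 0.81 beside 0.04). ST8SIA4 had 180 and 198 CPM in endothelial-like cells and 1.43 and 0.394 CPM in ductal-like cells (7.90, edgeR adjusted p = 2.4e-07). ST6GALNAC3 (7.02) and ST3GAL4 (3.88) rose, and ST3GAL5 (-2.71), ST6GAL1, which caps N-glycans (-1.89), and ST3GAL1 (-1.80) fell. ST3GAL1 and ST3GAL5 were thus lower than in ductal-like cells in both comparisons.

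The lists around the 2 genes not analysed gave the following. Of 20 tested enzymes that make or compete for the acceptor of alpha-Gal, 7 were higher and 2 lower in PPDO (median 0.45), so that 45% were called beside 43.6% of all genes, with B4GALT6, a lactosylceramide synthase gene (2.67), B3GNT5 (2.14) and the nucleotide sugar transporter gene SLC35A3 (1.22) higher and A4GALT, the Gb3 synthase gene (-1.84), and B4GALT5 (-1.34) lower. In endothelial-like cells 5 of 19 were higher and 2 lower (median 0.12), or 36.8% called beside 34.9% of all genes, with B3GNT3 (5.97), A4GALT (4.12) and B3GNT5 (1.71) higher and B3GNT2 (-1.80) and UGP2 (-1.05) lower. A4GALT lay on opposite sides in the 2 comparisons. Of the GalNAc transferase and turnover genes, 5 of 12 were higher and 1 lower in PPDO (median 0.47, 50% called beside 43.6% of all genes), led by GALNT6 (4.51), B4GALNT3 (4.27) and B4GALNT4 (2.85), with GALNT1 lower (-2.01), and 1 of 13 was higher and 4 lower in endothelial-like cells (median -0.10, 38.5% called beside 34.9% of all genes). There GALNT3 (-5.95), B4GALNT3 (-3.93) and GALNT12 (-2.05) fell, and B4GALNT1, the GM2 synthase gene, rose from 0.0455 and 0 CPM to 1.245 and 6.16 CPM. B4GALNT3, which makes a sugar pair with a terminal N-acetylgalactosamine, was at 65.2 and 80.4 CPM in PPDO and 5.25 and 5.13 CPM in ductal-like cells.

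Of the complement and coagulation regulators, which act at the blood-facing cell surface, 7 of 10 were tested, none of them the complement regulator genes CD46, CD55 and CD59. In PPDO, PROCR, the protein C receptor gene (2.39), and THBD, the thrombomodulin gene (1.41), were higher and ENTPD1 was lower (-2.05), at a median of 0.44 and with 42.9% called beside 43.6% of all genes. In endothelial-like cells all 7 tested were higher (median 4.90), beside 18.1% of all genes, led by VWF (8.08), TFPI (6.60) and THBD (6.45), of which VWF also served to name the class. THBD had 96.1 and 104 CPM there, 2.49 and 2.45 CPM in PPDO and 1.41 and 1.10 CPM in ductal-like cells. Its rise in PPDO was thus small beside its endothelial-like level.

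Within PPDO, all 12 tested genes of sialic acid supply differed among the 9 clusters, as did 12 of 14 sialyltransferases, beside the 74.4% of all genes. The other lists were alike, with 19 of 20 acceptor genes, 12 of 12 GalNAc genes and 6 of 7 complement and coagulation regulators called. Only CMAH was kept out of the clustering, so list genes could help to define the clusters and these counts are a description. In cluster 1, where CMAH was lowest, NANS had 425 and 368 CPM, CMAS 35.7 and 36.9 CPM and CYB5A 133 and 128 CPM, each within the range of the other clusters. CYB5R3 was highest in cluster 1 in both libraries, at 9.38 and 7.16 CPM, and SLC17A5 was lowest there, at 11.4 and 10.3 CPM, so the members of the list did not go one way. ST6GAL1 had 49.6 and 90.1 CPM in cluster 1, 17.3 and 11.5 CPM in cluster 5, and 366 and 444 CPM in cluster 8, where CMAH was highest too. It is 1 of the 14 sialyltransferases tested, named after its values were seen. Its F of 33.8 was below those of ST6GALNAC2 (46.9) and ST3GAL5 (42.8) among others, whose levels by cluster are not given here.

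The genes whose pattern was most like that of CMAH were ranked over 17 sums, 15 of primary classes and 2 of PPDO, among 9268 genes with a mean of at least 10 CPM. They were the forkhead factor gene FOXN2 (Pearson r of log2(CPM + 1) 0.88), the glutamine transporter gene SLC1A5 (0.87), CRYBG3 (0.84), the WNT-responsive factor gene LEF1 (0.83) and SSH1 (0.83). The sums of a library share its animal and depth, and the values are a description with no test. FOXN2 had its highest levels in immune-like cells, at 208 and 215 CPM, and CRYBG3 in endothelial-like cells, at 154 and 159 CPM. In acinar-like cells CRYBG3 had 7.19 and 9.34 CPM, beside 9.39 and 7.77 CPM in ductal-like and 31.3 and 11.5 CPM in stromal-like cells, and LEF1 had 8.50 and 1.97 CPM. The order within the upper group differed from that of CMAH for SLC1A5, SSH1 and LEF1 too: SLC1A5 and SSH1 were higher in immune-like than in endothelial-like cells in both libraries, and LEF1 was highest in Schwann-like cells of primary pancreas 1 and in immune-like cells of primary pancreas 2.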

How the data were processed

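The authors aligned the reads of 3′ droplet libraries with Cell Ranger 7.1.0 to their own pig annotation and deposited filtered count matrices, raw UMI counts per feature and barcode without correction for free RNA. Features of a gene, including its 3′ extensions, were summed here. CMAH has no extension feature, so its transcripts ending beyond the annotated model may be missed. Cells were kept with the limits of the study's methods (at most 3% mitochondrial UMIs in PPDO and 8% in primary pancreas, with a floor of genes per cell for each primary library). The methods give the 2 PPDO lines floors of 600 and 1000 genes, and since the labels do not say which line is which, 1000 was used for both and 600 as an alternative. Doublets of the primary libraries were removed with Scrublet (89 and 154 cells) and none in PPDO, and cells were clustered with Scanpy 1.11.5 and leidenalg 0.10.2 on 2000 variable genes without CMAH. UMI sums per class or cluster and library, from at least 20 cells, were tested with edgeR 4.0.16 (TMM, quasi-likelihood, Benjamini-Hochberg over all genes tested in a comparison, called under 0.05). The test reports no SE. Each SE given is the absolute log2 fold change over the square root of F, and its interval uses a t quantile. Both are therefore approximate, above all for classes with few UMIs. DESeq2 1.42.0 and other settings served as alternatives. The fits were tested on simulated data with 4-fold changes and a dispersion (spread between sums) of 0.1. They recovered 64.5% of changed genes for PPDO against ductal-like cells, 60.6% for endothelial-like against ductal-like cells and 58.5% among PPDO clusters. A gene not called may therefore still differ. The dispersions fitted to the data were 0.092, 0.076 and 0.013, so the simulated spread was larger, above all for the clusters. The genes named from a list are, for each direction, at most 3 of its called genes, taken by size of change, and further list genes were named after their values were seen. Of the list genes, FUT4, ABO, NANP, ST6GALNAC6, CD46, CD55 and CD59 matched no feature name. The members and lists were chosen with earlier results of these data known. The label's replicate number was taken as the number the methods give each pancreas, on which the eGFP counts bear directly. Counting intervals are exact at the 95% level, and a count of 0 is given a limit of 3 counts. Sequences of CMAH were not used here.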

Additional observations from a re-analysis of the deposited data

Results flagged for a closer look

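CMAH UMIs also appeared in 3 primary clusters that were given no cell type name and entered no comparison. Cluster 21 of primary pancreas 1 (149 cells), led by GATA4 with the acinar factor gene RBPJL among its leading genes, had 91.0 CPM from 90 UMIs (95% interval 73.1 to 112). Of its best-matching list, that of acinar markers, only 1 marker stood out in it, under the 3 needed for a name. The matching cluster was called acinar-like, from 3 or 4 markers, in 3 of 4 other clusterings: with CMAH among the clustering genes, with doublets kept and with 1 filter for both libraries. The acinar markers summed to 8965 CPM there, against 127483 CPM in acinar-like cluster 15 of the same library. Cluster 22 of primary pancreas 1 (124 cells, median 1298 UMIs), led by FABP4 and FABP5 and with endothelial markers summing to 10291 CPM, had 21.3 CPM from 4 UMIs (5.79 to 54.4), below the 140 CPM of the endothelial-like cells of that library. Cluster 13 of primary pancreas 2 (244 cells), left without a name for its low depth, had 5.16 CPM from 5 UMIs (1.68 to 12.04), with 21.2% of its UMIs from INS. What these cells are was not tested.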

How the results depend on the processing

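The difference of CMAH between PPDO and ductal-like cells kept its direction and its call in all 18 alternatives (4.59 to 6.91, adjusted p at most 0.015), that between endothelial-like and ductal-like cells in all 12 (6.22 to 7.81), and that among PPDO clusters in all 5. Without each replicate in turn the first ranged from 4.86 to 6.54 and the next from 6.78 to 7.81, in fits that leave 1 or both groups with a single sum, assumed to vary like the others. With a replicate block the first was 5.62 (edgeR adjusted p = 0.0050). Replicate numbers of PPDO and primary pancreas name different animals, and the deviations of same-numbered sums correlated at -0.011, so the block is no pairing. Without the library block the difference between endothelial-like and ductal-like cells was 7.08. Ductal-like against INS-rich-like cells turned from 0.62 to -0.38 without primary pancreas 1, and was 6.19 without primary pancreas 2. In the latter fit the INS-rich-like cells left, those of primary pancreas 1, hold 0 CMAH UMIs, so the size of that value is not read. Doublets kept gave mean CMAH levels of 1.84 CPM in ductal-like and 2.99 CPM in stromal-like cells, and acinar-like cells, whose membership changed in the new clustering, had 52.8 in place of 28.1 CPM in primary pancreas 1 and 17.3 in place of 38.3 CPM in primary pancreas 2. The percentage of cells with a UMI moved with depth. Thinned to 1000 UMIs it was on average 10.9% in endothelial-like, 6.89% in immune-like, 1.78% in acinar-like and 2.72% in PPDO cells. The order of the last pair was then turned, but with only 2 and 3 acinar-like cells holding a UMI it is not read. Thinned to 5000 UMIs it was 34.8%, 22.4%, 12.1% and 10.8% in these, and 1.46% in stromal-like cells. Without thinning it was 50.3%, 33.0%, 23.1% and 33.0%, with 1.84% in stromal-like, 1.46% in ductal-like and 0.591% in INS-rich-like cells. Genes called between PPDO and ductal-like cells numbered 10282, but 5126 and 4721 without PPDO 1 and 2 and 6759 with cluster 7 alone. Genes called between endothelial-like and ductal-like cells numbered 6346, but 3838 without primary pancreas 1. The number of genes called per list stayed within 1.5 times under DESeq2 and the other blocking, but the count in 1 direction did not always. DESeq2 gave 4 acceptor genes lower in PPDO in place of 2, 2 coagulation regulator genes lower in place of 1, and 3 GalNAc genes higher in endothelial-like cells in place of 1. The replicate block gave 1 coagulation regulator gene higher in PPDO in place of 2. With 2 libraries a group, class levels under 1 CPM in a library rest on 0 to 24 UMIs.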
